A study of Mus musculus with 12 samples.

Results

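The cyclin D genes and the genes of the CDK inhibitors were followed by RNA-seq in the P6 cochlear sensory epithelium after deletion of *Jag1*, a Notch ligand of supporting cells. The members were taken by their symbols: *Ccnd1*, *Ccnd2* and *Ccnd3*, the CIP/KIP inhibitors *Cdkn1a*, *Cdkn1b* and *Cdkn1c*, and the INK4 inhibitors *Cdkn2a*, *Cdkn2b*, *Cdkn2c* and *Cdkn2d*, which are 10 of the 28686 gene symbols counted. Of these, 9 passed the filter of a mean count of at least 5 and were among the 18459 genes tested, and *Cdkn2a* did not pass it. Libraries came from 6 Sox2CreER/+Jag1fl/fl mutants and 6 Sox2+/+ littermate controls, and tamoxifen was given to the pups of both genotypes at P0/P1. In the mutants CreER is made from the *Sox2* locus, which is active in supporting cells, so that one *Sox2* allele is altered there too. The controls had no CreER, and in the study's methods they carried 1 or 2 floxed *Jag1* alleles, although the labels call them wild type. Genotype at *Jag1*, the CreER allele and its activation therefore cannot be told apart. The labels give the strain as C57BL/6;129SV, whereas the study's methods give C57bl6/J for the CreER line and FVB/n for the floxed line. Both sexes were used in the study, and the sex of each mouse was not given in the sources used here.

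D-type cyclins bind CDK4 and CDK6 and start the phosphorylation of the retinoblastoma protein, which releases E2F factors and lets a cell enter S phase. INK4 proteins bind CDK4 and CDK6 and keep cyclin D off them, while CIP/KIP proteins bind complexes of cyclin and CDK, above all those of CDK2. In the cochlea p27Kip1, the product of *Cdkn1b*, is known for the cell cycle exit of the prosensory domain and stays in supporting cells. The products of *Cdkn1a* and *Cdkn2d* are known to help keep hair cells out of the cycle. Notch ligands such as JAG1 act through the DNA-binding factor RBPJ in the receiving cell.

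Upstream sequences from RefSeq (GRCm38.p6) were read for 7 of the 10 members, in 11 windows that each hold the 250 bases before an annotated start. The 3 windows with a match to the RBPJ core TGGGAA are shown because the deleted gene signals through RBPJ. The other start of *Cdkn2a* is shown beside them because its 2 transcripts, for p16Ink4a and p19Arf, were counted together. Capitals mark matches on either strand to the RBPJ core, to an E2F site (TTTGGCGC, TTTCCCGC, TTTGCCGC or TTTCGCGC), to the GC box GGGCGG or to the E-box CACGTG. Each sequence is given 5′ to 3′ on the strand of the gene and ends before the first base that GENCODE places in an exon of a protein-coding gene, which leaves 52 bases for *Cdkn2d* and 216 for the upstream start of *Cdkn2a*.
Cdkn1a, chr17:29093519-29093768, plus strand: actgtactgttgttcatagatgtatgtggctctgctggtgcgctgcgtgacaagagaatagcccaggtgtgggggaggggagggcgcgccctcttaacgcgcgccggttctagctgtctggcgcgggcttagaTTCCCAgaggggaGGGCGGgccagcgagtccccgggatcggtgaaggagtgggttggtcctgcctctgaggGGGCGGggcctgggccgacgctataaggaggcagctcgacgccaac
Cdkn2a, upstream start, chr4:89294654-89294869, minus strand: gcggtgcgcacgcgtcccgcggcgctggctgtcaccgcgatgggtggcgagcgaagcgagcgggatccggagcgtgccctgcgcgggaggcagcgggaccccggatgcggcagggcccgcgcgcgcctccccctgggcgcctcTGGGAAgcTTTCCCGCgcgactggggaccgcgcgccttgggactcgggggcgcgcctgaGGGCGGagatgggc
Cdkn2a, downstream start, chr4:89282193-89282442, minus strand: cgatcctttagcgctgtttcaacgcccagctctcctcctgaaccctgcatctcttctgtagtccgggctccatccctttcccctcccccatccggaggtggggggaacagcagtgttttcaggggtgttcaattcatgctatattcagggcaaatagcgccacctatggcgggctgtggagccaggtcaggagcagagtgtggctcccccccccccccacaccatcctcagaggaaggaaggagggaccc
Cdkn2d, chr9:21291408-21291459, minus strand: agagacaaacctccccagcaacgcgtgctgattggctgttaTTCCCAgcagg
In *Cdkn1a* and *Cdkn2d* the RBPJ core lay on the opposite strand and reads TTCCCA, and in *Cdkn2a* it stood 2 bases before a match to the E2F site, with no overlap between the motifs. Over 32851 RefSeq windows of this length, 21.6% held the RBPJ core, 1.9% an E2F site, 32.7% the GC box and 6.0% the E-box. A match of 6 letters is common at this length and describes the sequence alone.

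The study asked what changes in the maturing cochlea when JAG1 is lost. Levels are given in CPM, counts scaled to library size with TMM factors. *Jag1* itself lay between 83.0 and 118 CPM in controls, with a median of 104 CPM, and between 24.2 and 42.9 CPM in mutants, with a median of 37.5 CPM. The groups did not overlap, and the mean of the mutants was 35.7% of that of the controls (edgeR's quasi-likelihood test, Benjamini-Hochberg adjusted p = 0.000258). Total counts lay between 28498549 and 34430252 in controls and between 31899265 and 36134983 in mutants. In these libraries 35 genes (0.190%) had an edgeR adjusted p under 0.05, 1949 (10.6%) had an unadjusted p under 0.05, and 184 (0.997%) did not overlap between the genotypes. Marker genes of other cells were read as lists. Of 17 neuron markers 16 had a fold change above 0 and 14 an unadjusted p under 0.05. Their summed levels were 372 to 579 CPM in controls and 470 to 1803 CPM in mutants. All 13 Schwann cell markers had a fold change above 0, 12 of them with an unadjusted p under 0.05, with sums of 587 to 1671 CPM in controls and 1366 to 6592 CPM in mutants. The 12 macrophage markers all had a fold change below 0, 7 with an unadjusted p under 0.05, with sums of 452 to 618 CPM in controls and 376 to 472 CPM in mutants. The mean log2 CPM of a list was compared by exact permutation, with adjustment over 8 lists. The adjusted p was 0.0346 for neurons, 0.0346 for Schwann cells and 0.0866 for macrophages, which did not pass the threshold of 0.05. No marker of these 3 lists had an edgeR adjusted p under 0.05, and the neuron and Schwann cell lists were written with earlier results of these data known. The 14 hair cell markers summed to 540 to 605 CPM in controls and 565 to 645 CPM in mutants, and the 14 supporting cell markers to 5839 to 7344 CPM and 4755 to 6591 CPM, so that both cell types of the labelled tissue were present. Of the supporting cell markers 11 had a fold change below 0 and 3 above, and at an unadjusted p under 0.05 4 were lower (*Sox2*, *S100a1*, *Lfng* and *Tectb*) and 1 was higher (*Ngfr*), of which *Lfng*, a modifier of Notch receptors, had an edgeR adjusted p under 0.05. These 5 are named after their values were seen. *Sox2* is also the locus of the CreER allele, so that its lower level cannot be told apart from the altered allele. *Ngfr* had a log2 fold change of 1.38, beside medians of −0.12 in the supporting cell list and 1.72 in the Schwann cell list. Which cells its RNA came from was not tested. Mesenchymal markers, at 9691 to 12352 CPM, summed to more than either. All 10 of them had a fold change below 0, 1 with an unadjusted p under 0.05. Of 8 endothelial markers 7 had a fold change below 0 and 1 above, and of 6 erythroid markers 5 below and 1 above. In each of these 2 lists 1 was lower at an unadjusted p under 0.05. No marker was at 0 in every library.

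None of the 9 tested members had an edgeR adjusted p under 0.05, and none was free of overlap between the genotypes. *Ccnd1* and *Ccnd2*, both lower in mutants, were the 2 members with an unadjusted p under 0.05, which is 22.22% of the 9 beside 10.6% of all genes tested. When 1 mouse was left out, *Ccnd2* kept an unadjusted p under 0.05 in 12 of 12 cases and *Ccnd1* in 5 of 12, losing it without any one of controls 1, 2, 3 and 6 or mutants 1, 2 and 4, while *Ccnd3* gained it without control 1, control 3 or mutant 1 and *Cdkn2b* without mutant 1. The fold change was below 0 for 6 members and above 0 for 3, with a median log2 fold change of −0.02 beside 0.003 over all genes tested. In bulk tissue fewer cells of a type and less RNA per cell cannot be told apart.

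**Figure D1:**
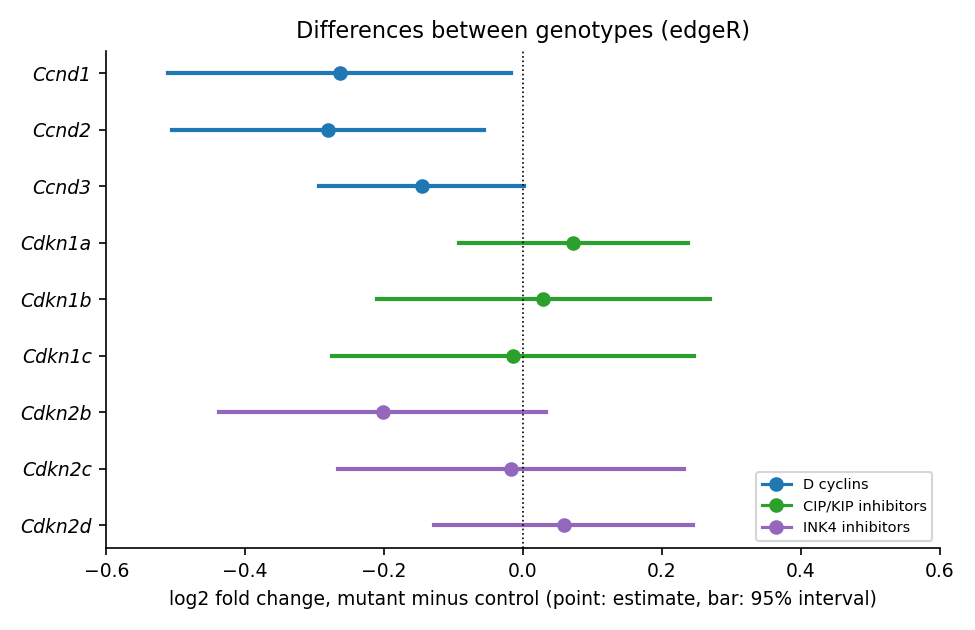
Log2 fold change of each tested member, mutant minus control, as estimated by edgeR (points) with its 95% interval (bars), coloured by family. The intervals of Ccnd1 and Ccnd2 lie below 0, that of Ccnd3 ends at 0.00, and those of the 6 inhibitors span 0.

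The levels of the 10 genes spanned several orders of magnitude. Per kilobase of exon, averaged over the 12 mice, the CIP/KIP inhibitors stood highest. *Cdkn1c*, which encodes p57Kip2, had 207 CPM per kb (range 155 to 262 over the 12 mice). This was more than 99.3% of the tested genes with an exon length. *Cdkn1a*, which encodes p21Cip1, had 52.6 CPM per kb (range 47.1 to 62.5) and *Cdkn1b* had 32.9 CPM per kb (range 25.1 to 38.5). The D cyclins followed, with 30.3 CPM per kb for *Ccnd2* (range 23.1 to 39.1), 19.5 for *Ccnd1* (range 14.9 to 23.5) and 10.0 for *Ccnd3* (range 8.84 to 11.6). The INK4 genes were lowest apart from *Cdkn2d*, which encodes p19Ink4d and had 10.3 CPM per kb (range 9.06 to 12.9). *Cdkn2b*, the gene of p15Ink4b, had 3.52 CPM per kb (range 2.90 to 4.46), and *Cdkn2c*, the gene of p18Ink4c, had 1.78 CPM per kb (range 1.47 to 2.08).

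Neighbours in this order were not all separate. The ranges of *Cdkn1b* and *Ccnd2* overlapped, and *Cdkn1b* was the higher in 8 of 12 mice. *Cdkn2d* and *Ccnd3* overlapped too, with *Cdkn2d* higher in 7 of 12. *Ccnd2* and *Ccnd1* overlapped in range, yet *Ccnd2* was higher in each of the 12 mice. The other neighbours did not overlap. The order rests on the length given to each gene: with the longest GENCODE transcript in place of all exons, *Ccnd2* had 45.1 CPM per kb, above *Cdkn1b* at 32.9, and *Ccnd3* had 22.8, above *Cdkn2d* at 11.4. Of the summed D cyclin level per kilobase, *Ccnd2* made up 50.9% ± 5.0 in controls and 50.1% ± 1.34 in mutants (± SD over 6 mice). *Ccnd1* made up 32.8% ± 4.78 and 32.3% ± 2.07, and *Ccnd3* 16.3% ± 2.09 and 17.6% ± 2.11 (± SD over 6 mice). These shares use all exons and rest on the lengths too. With the longest transcript *Ccnd1* had 24.6 CPM per kb, close to *Ccnd3* at 22.8.

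**Figure D2:**
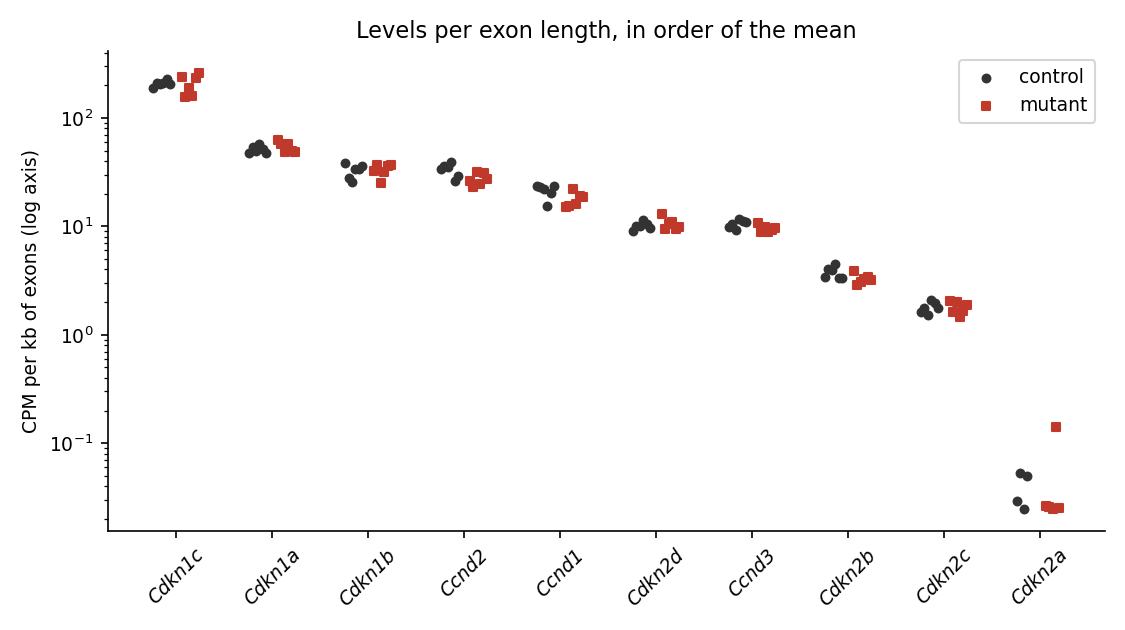
Level of each member in CPM per kb of exon on a log axis, in order of the mean over the 12 mice, with 1 point per mouse (circles, controls; squares, mutants). Cdkn1c stands highest at 207 CPM per kb and Cdkn2a lowest, and the 3 libraries with no Cdkn2a read are not drawn.

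*Ccnd1* encodes cyclin D1 and lies at chr7:144929931-144939925 on the minus strand (GENCODE M21, GRCm38). The 6 controls ran from 73.3 to 111 CPM with a median of 106 CPM, and the 6 mutants from 70.3 to 105 CPM with a median of 81.8 CPM. All 6 mutants lay below the control median, 3 controls lay above every mutant, and control 4, at 73.3 CPM, lay among the lowest mutants. Control and mutant means were 100 ± 14.4 CPM and 83.5 ± 13.5 CPM (± SD over 6 mice), a log2 fold change of −0.26 with an SE of 0.12 (edgeR adjusted p = 0.422). The level in mutants was 83.3% of that in controls, with a 95% interval of 70.2% to 98.8%. Mutants 1, 2 and 4, which had the lowest *Ccnd1* of the mutants at 70.3, 72.1 and 74.9 CPM, also had the highest neuron marker scores. When the scores of neurons and Schwann cells were entered as covariates, the log2 fold change of *Ccnd1* was −0.24 with an SE of 0.18. Without these 3 mice it was −0.08 (edgeR adjusted p = 0.925), but taking out the mutants of lowest *Ccnd1* must move the value towards 0, and this says nothing about the neuron score. Exons of *LTO1*, a gene on the opposite strand, cover 23.4% of the exon bases of *Ccnd1*, and the strand setting of the counting is not given in the sources used here.

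*Ccnd2* encodes cyclin D2 and lies at chr6:127125162-127152193 on the minus strand. Controls ran from 248 to 368 CPM with a median of 326 CPM, and mutants from 217 to 300 CPM, with a median of 251 CPM. As for *Ccnd1*, all 6 mutants lay below the control median. Above every mutant stood 4 controls, and 3 mutants lay below every control. The means were 313 ± 44.5 CPM and 258 ± 33.1 CPM (± SD over 6 mice), with a log2 fold change of −0.28, an SE of 0.11 and an edgeR adjusted p of 0.302. This put the mutants at 82.3% of controls, with an interval of 70.5% to 96.2%. Among the members *Ccnd2* had the smallest p. With the cell scores as covariates its log2 fold change was −0.02 with an SE of 0.15. Without mutants 1, 2 and 4 it was −0.14 (edgeR adjusted p = 0.866). These were also the mutants of lowest *Ccnd2*, at 246, 217 and 233 CPM, so that taking them out must move the value towards 0.

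*Ccnd3*, for cyclin D3, lies at chr17:47505051-47599691 on the plus strand. Its levels were 80.8 to 102 CPM in controls, with a median of 94.0 CPM, and 77.6 to 94.9 CPM in mutants, with a median of 82.4 CPM. Below the control median lay 5 of 6 mutants, and mutant 1 lay above it. The means of 92.5 ± 7.85 CPM and 83.6 ± 6.39 CPM (± SD over 6 mice) gave a log2 fold change of −0.15 with an SE of 0.07 (edgeR adjusted p = 0.479). Its level in mutants was 90.4% of control, with an interval of 81.6% to 100.1%. *Ccnd3* also varied the least of the 9 tested members within a genotype, with an SD of 0.12 on the log2 scale. The log2 fold change was −0.15 without mutants 1, 2 and 4. With the cell scores as covariates it was −0.14 with an SE of 0.12. Under each of 24 alternative settings, which reuse the same mice, the fold changes of all 3 D cyclins were below 0 and none was called.

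**Figure D3:**
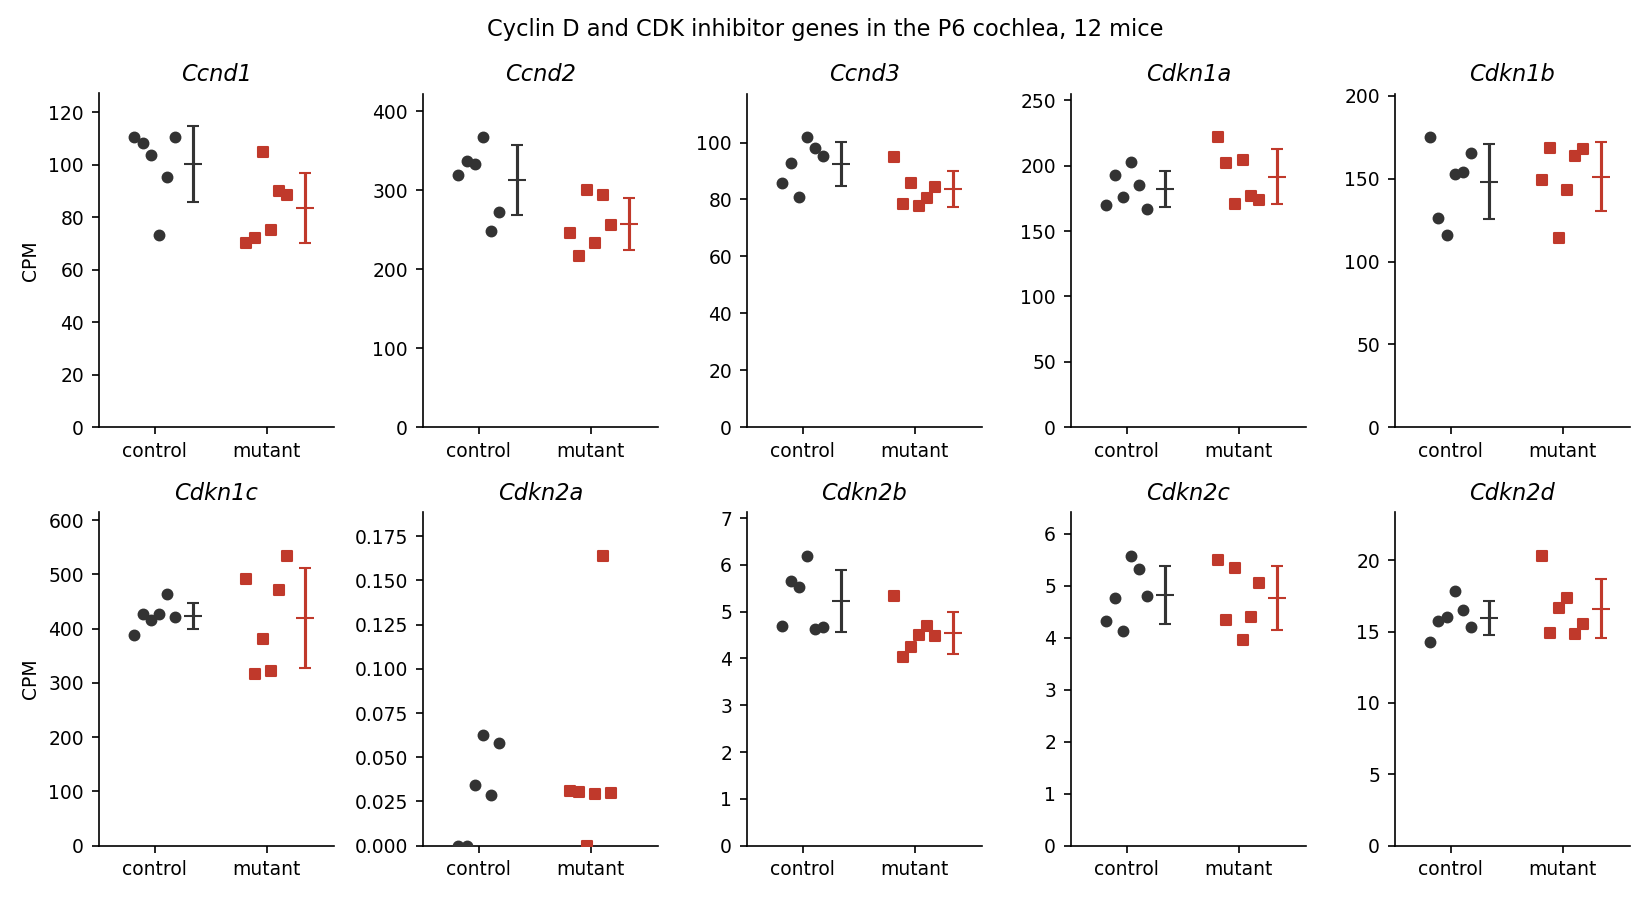
CPM of each member in each mouse (circles, controls; squares, mutants), with the mean and SD of the 6 mice of a genotype beside the points except for Cdkn2a, and each axis starting at 0. All 6 mutants lie below the control median in Ccnd1 and Ccnd2, and the mutants of Cdkn1c fall into 3 above and 3 below every control.

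Among the CIP/KIP inhibitors *Cdkn1c*, for p57Kip2, had the widest spread between mutants. The gene lies at chr7:143458339-143461050 on the minus strand and is expressed from the maternal copy. Controls kept to a narrow range of 389 to 463 CPM with a median of 425 CPM, while mutants ran from 317 to 535 CPM with a median of 427 CPM. Mutants 1, 5 and 6, at 491, 472 and 535 CPM, lay above every control. Mutants 2, 3 and 4, at 317, 382 and 322 CPM, lay below every control. The means were nonetheless close, at 424 ± 24 CPM and 420 ± 92.4 CPM (± SD over 6 mice), with a log2 fold change of −0.01 and an SE of 0.12 (edgeR adjusted p = 0.990). The difference in spread was not tested. The interval of the level in mutants was 82.7% to 119% of controls. An antisense transcript, *Gm44732*, covers 30.7% of the exon bases of *Cdkn1c*.

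*Cdkn1a*, a target of p53, lies at chr17:29090976-29100727 on the plus strand. It measured 167 to 203 CPM in controls with a median of 180 CPM, and 171 to 222 CPM in mutants with a median of 190 CPM. The genotypes overlapped, and 3 mutants stood on each side of the control median. Means of 182 ± 13.8 CPM and 192 ± 20.9 CPM (± SD over 6 mice) gave a log2 fold change of 0.07 with an SE of 0.08 (edgeR adjusted p = 0.857), and an interval of 93.8% to 118% of controls. Mutants 1, 2 and 4, the mice of lowest *Ccnd1* among the mutants, had the highest *Cdkn1a*, at 222, 202 and 204 CPM. Without them the log2 fold change was −0.07, a move that follows from taking out the highest mutants, and with the cell scores as covariates it was −0.03 with an SE of 0.13.

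*Cdkn1b* lies at chr6:134920401-134925513 on the plus strand. Its range was 116 to 175 CPM in controls, with a median of 153 CPM, and 114 to 169 CPM in mutants, with a median of 156 CPM. The highest and the lowest mouse of each genotype lay within a few CPM of those of the other. The means were 148 ± 22.7 CPM and 151 ± 20.9 CPM (± SD over 6 mice), a log2 fold change of 0.03 with an SE of 0.11 (edgeR adjusted p = 0.972). Levels between 86.4% and 120% of controls lay within the interval. It is not a limit of detection, and the smallest change in this gene that could have been called was not estimated.

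Of the INK4 genes *Cdkn2b*, at chr4:89306299-89311039 on the minus strand, had the largest fold change. Controls held 4.63 to 6.20 CPM with a median of 5.12 CPM, and mutants 4.03 to 5.34 CPM with a median of 4.49 CPM. Below every control lay 4 mutants, and mutant 1 lay above the control median. The means of 5.23 ± 0.658 CPM and 4.55 ± 0.450 CPM (± SD over 6 mice) rest on 132 to 199 reads per library and gave a log2 fold change of −0.20 with an SE of 0.11 (edgeR adjusted p = 0.583). Its interval ran from 73.8% to 102% of controls. The fold change was below 0 under each of the 24 alternative settings, which reuse the same mice. With the cell scores as covariates the log2 fold change of *Cdkn2b* was −0.10 with an SE of 0.19.

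*Cdkn2c*, at chr4:109660876-109667189 on the minus strand, was read 120 to 189 times per library. Levels were 4.13 to 5.58 CPM in controls with a median of 4.78 CPM, and 3.94 to 5.49 CPM in mutants with a median of 4.72 CPM. The ranges of the genotypes were nearly the same. Its log2 fold change was −0.02 with an SE of 0.12 (edgeR adjusted p = 0.988), and its interval was 83.1% to 117% of controls.

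*Cdkn2d*, at chr9:21288410-21291407 on the minus strand, had 14.3 to 17.9 CPM in controls with a median of 15.9 CPM, and 14.8 to 20.3 CPM in mutants with a median of 16.1 CPM. Mutant 1 was the one mutant above every control. The means of 15.9 ± 1.20 CPM and 16.6 ± 2.08 CPM (± SD over 6 mice) gave a log2 fold change of 0.06 with an SE of 0.09 (edgeR adjusted p = 0.911). Between 91.5% and 119% of controls lay in the interval.

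*Cdkn2a*, at chr4:89274471-89294653 on the minus strand, was near the limit of detection in both genotypes. The controls held 6 reads in all, with 0 to 2 per library and 2 libraries at 0. The mutants held 10 reads, with 0 to 6 per library and 1 library at 0. Mutant 5, with 6 reads or 0.164 CPM, was the one library to exceed 3 reads, the limit that a count of 0 allows, which corresponds to 0.0820 to 0.107 CPM in these libraries. No fold is given for this gene. The row holds reads of both transcripts, whose starts are shown above, and cannot separate p16Ink4a from p19Arf. These limits cover counting error only.

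The members were also compared with each other mouse by mouse, within each genotype, in 72 relations of 6 mice. *Ccnd3* and *Cdkn2c* had the same order in both genotypes, with Pearson's r of 0.972 in controls and 0.902 in mutants and a Spearman's rho of 1.0 in each. The exact permutation p was 0.00278 for r and for rho in both genotypes, the smallest that 6 mice allow, and the adjusted p over the 72 relations was 0.05, which did not pass the threshold. Without the 2 mice farthest from the median of *Ccnd3*, r was 0.957 in controls and 0.974 in mutants. *Ccnd1* and *Cdkn1a* ran in opposite directions, with r = −0.93 in mutants (exact permutation p = 0.0111, adjusted p = 0.16; rho = −0.886, p = 0.0333, adjusted p = 0.48). In controls r was −0.778 (exact permutation p = 0.0889, adjusted p = 0.526; rho = −0.771, p = 0.103, adjusted p = 0.669). Without the 2 mice farthest from the median of *Ccnd1*, r was −0.974 in mutants and −0.285 in controls. Few mice then remain, over a narrower range of *Ccnd1*, so that these values cannot show what the relation rests on. Control 4, the control of lowest *Ccnd1* and highest *Cdkn1a*, had the lowest neuron score of the 12 mice, and mutants 1, 2 and 4 had the 3 highest. Control 4 also had the lowest Schwann cell score, at 3.93, and the highest replication and mitosis score, at 3.636 (mean log2 CPM). A relation of these scores to *Ccnd1* and *Cdkn1a* was not tested. In controls, *Ccnd1* and *Cdkn2d* had r = −0.887 and rho = −1.0, and *Ccnd2* and *Cdkn2b* had r = 0.857 and rho = 1.0 (exact permutation p = 0.00278 for each, adjusted p = 0.05). Leaving out the 2 farthest mice gave r = −0.727 and r = 0.924. In mutants the same pairs had r = −0.384 (exact permutation p = 0.478, adjusted p = 0.782; rho = −0.429) and r = 0.128 (exact permutation p = 0.822, adjusted p = 0.909; rho = 0.143), and the difference between the genotypes was not tested.

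**Figure D4:**
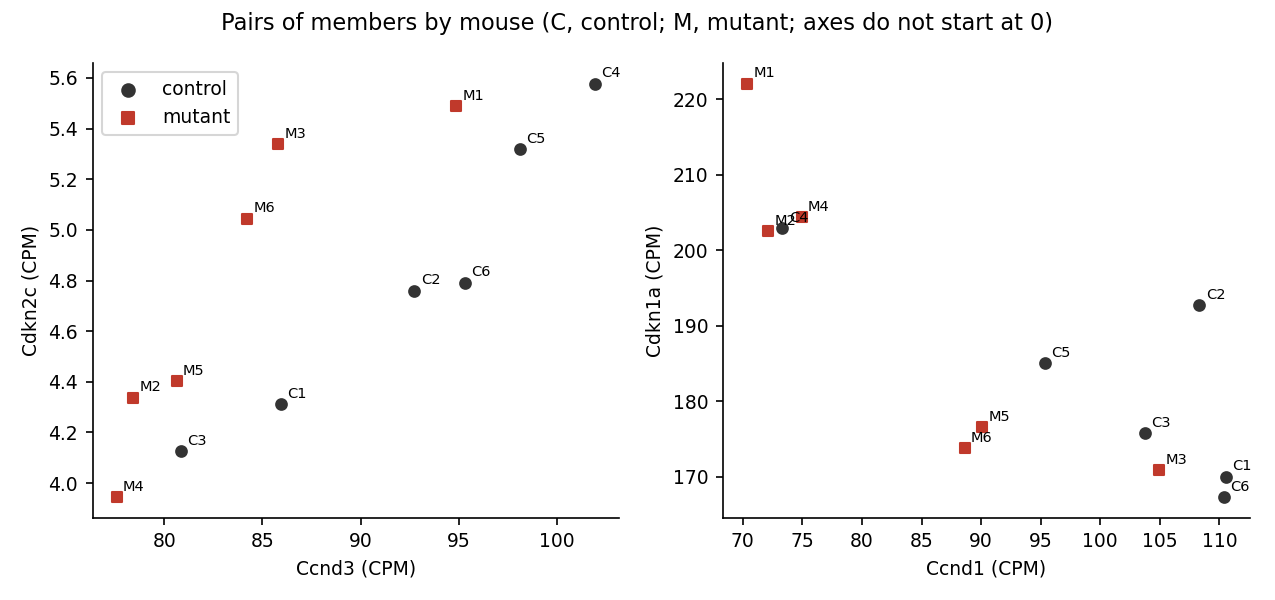
CPM of Cdkn2c against Ccnd3 (left) and of Cdkn1a against Ccnd1 (right), with 1 point per mouse (circles C1 to C6, controls; squares M1 to M6, mutants), on axes that do not start at 0. Within each genotype Cdkn2c follows the order of Ccnd3, and M1, M2 and M4 lie with C4 at low Ccnd1 and high Cdkn1a.

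The genes whose levels followed those of each member most closely were sought among the 13058 genes whose mean count reached 100, by Pearson's r of the deviations from the genotype mean of log2 CPM over the 12 mice. The values share their libraries and are the highest of many, and are given as a description. For the D cyclins these genes included *Ccdc3* (0.915) and *Pdxk* (0.902) with *Ccnd1*, *Copb2* (0.908) with *Ccnd2*, and *Nit2* (0.959) and *Tmem126a* (0.938) with *Ccnd3*. For the CIP/KIP inhibitors they were *Csdc2* (0.945) and *Lrrc49* (0.941) with *Cdkn1a*, *Gulp1* (0.979) and *Fmr1* (0.947) with *Cdkn1b*, and *Ptrf* (0.921) and *2310036O22Rik* (0.914) with *Cdkn1c*. For the INK4 genes they were *Loxl1* (0.948) and *Hcls1* (0.927) with *Cdkn2b*, *Rpl3* (0.938) and *Ccnd3* (0.929) with *Cdkn2c*, and *Arhgdia* (0.973) and *Chad* (0.958) with *Cdkn2d*. *Ccnd3* was the one member found among the closest genes of another.

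The genes of proteins that D cyclins and their inhibitors act on, or that control them, were followed as RNA in 6 lists with 83 genes. None had an edgeR adjusted p under 0.05, beside 0.190% of all genes tested. An unadjusted p under 0.05 was reached by 6 (7.23%, beside 10.6% of all genes), 1 higher and 5 lower in mutants. Their log2 fold changes lay between −0.25 and 0.32 with a median of −0.002.

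Of the 10 genes of kinase partners and E cyclins, 1 was lower at an unadjusted p under 0.05. In controls and mutants *Cdk4* had 190 ± 12.7 CPM and 183 ± 16.3 CPM (± SD over 6 mice; log2 fold change −0.05, edgeR adjusted p = 0.885). *Cdk6* had 34.8 ± 2.28 CPM and 36.9 ± 3.48 CPM (± SD over 6 mice; log2 fold change 0.08, edgeR adjusted p = 0.807). The genotypes overlapped for both of these partners of cyclin D. The one lower gene was *Ccne1*, for cyclin E1, which measured 3.79 ± 0.304 CPM and 3.20 ± 0.288 CPM (± SD over 6 mice), with no mutant above the control median (log2 fold change −0.25, edgeR adjusted p = 0.401). *Ccne2*, for cyclin E2, had a fold change of 0.22 in log2 (edgeR adjusted p = 0.770).

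Among 13 genes of the retinoblastoma and E2F families, *E2f4*, a repressive E2F, was the 1 gene with an unadjusted p under 0.05, at 42.7 ± 2.17 CPM and 38.3 ± 3.26 CPM (± SD over 6 mice; log2 fold change −0.16, edgeR adjusted p = 0.372). *Rb1*, the retinoblastoma gene, had 51.8 ± 6.60 CPM and 59.0 ± 8.46 CPM (± SD over 6 mice; log2 fold change 0.19, edgeR adjusted p = 0.592). The 20 replication and mitosis genes summed to 278 to 330 CPM in controls and 270 to 336 CPM in mutants, 8 with fold changes above 0 and 12 below. Transcripts of dividing cells were thus present in every library, at sums that overlapped between the genotypes. *Mcm2*, a subunit of the replicative helicase, was the one member of that list with an unadjusted p under 0.05, at 25.3 ± 1.57 CPM and 21.9 ± 1.88 CPM (± SD over 6 mice; log2 fold change −0.21, edgeR adjusted p = 0.212). *Mcm5*, another subunit, had a fold change of −0.20 in log2 (edgeR adjusted p = 0.493).

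Of 14 genes of p53 and its targets 2 were lower at an unadjusted p under 0.05. *Trp53*, the gene of p53, had 73.8 ± 4.54 CPM and 67.8 ± 2.85 CPM (± SD over 6 mice; log2 fold change −0.12, edgeR adjusted p = 0.443), and 5 controls lay above every mutant. *Sesn2*, a stress-response target, had a fold change of −0.19 in log2 (edgeR adjusted p = 0.473). Of 10 genes for the turnover of cyclins and inhibitors, *Fbxw7*, whose product marks cyclin E for degradation, was the 1 gene at an unadjusted p under 0.05. It had 24.2 ± 0.661 CPM and 26.6 ± 1.81 CPM (± SD over 6 mice; log2 fold change 0.14, edgeR adjusted p = 0.405), with all 6 mutants above the control median. *Fzr1*, an activator of the anaphase-promoting complex, had a fold change of −0.07 in log2 (edgeR adjusted p = 0.851). None of 16 upstream regulators reached an unadjusted p under 0.05. The closest were *Rbpj*, the Notch effector, with 43.1 ± 6.90 CPM and 49.9 ± 8.29 CPM (± SD over 6 mice; log2 fold change 0.21, edgeR adjusted p = 0.610), and *Ezh2*, a histone methyltransferase (log2 fold change 0.10, edgeR adjusted p = 0.724).

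**Figure D5:**
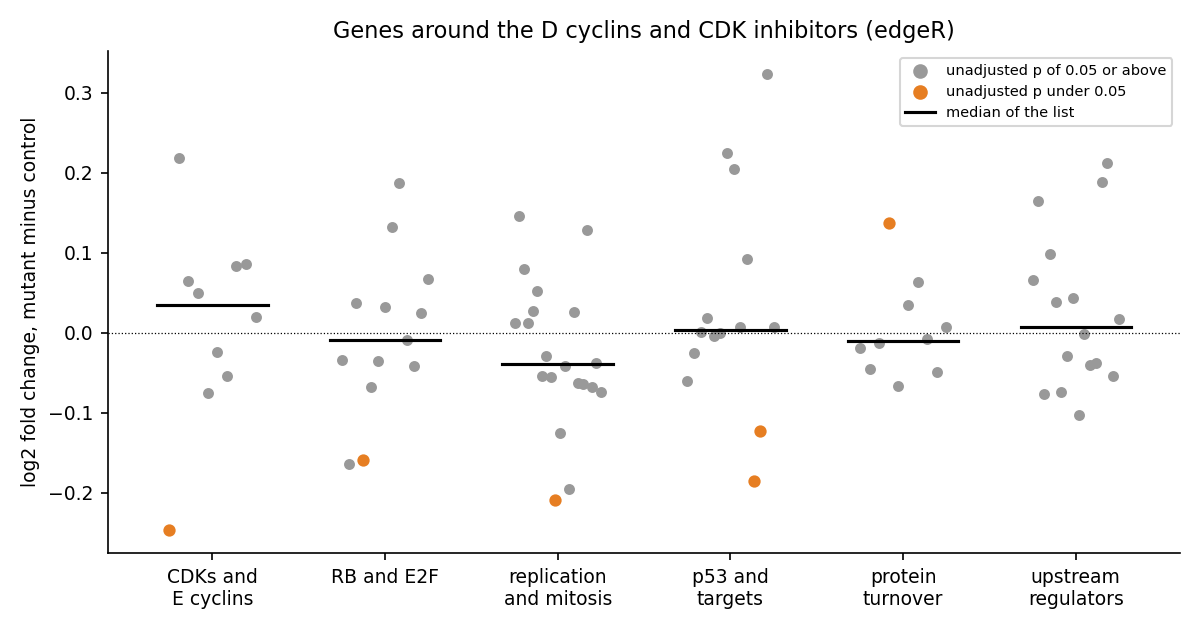
Log2 fold change of the 83 genes of the 6 lists, mutant minus control, with 1 point per gene, the median of each list as a line and unadjusted edgeR p under 0.05 in orange. The medians lie between −0.04 and 0.03, and the 6 orange genes are 1 higher and 5 lower in mutants.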

How the data were processed

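RNA-seq counts of the 12 mice, 6 per genotype by the sample labels, were analysed. Raw counts, deposited by the authors, give reads per gene symbol, and their processing notes name Trimmomatic 0.32, STAR 2.4.2a, HTSeq 0.9.1 and DESeq2 1.10.1 on GRCm38.p4. The annotation and the strand setting are not given in the sources used here. The deposited table of the authors' own DESeq2 comparison (means, fold changes and p-values) was not used.

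Genotypes were compared with edgeR 4.0.16 in R 4.3.3 (quasi-likelihood test, TMM factors, robust, without covariates) over the 18459 genes whose mean count was 5 or more, with Benjamini-Hochberg adjustment. CPM uses the TMM factors, and log2 CPM has a prior count of 2. Single values and marker scores were compared by two-sided exact permutation of the mice. The edgeR test, and not the permutation tests, was checked on simulated data. Exon lengths come from GENCODE M21, found for 94.8% of the tested genes. Levels depend on these lengths, and reads of overlapping genes could be lost or split.

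Alternatives were DESeq2 1.42.0, limma-voom (limma 3.58.1), other normalizations, filters and thresholds, covariates, the replicate block and leaving out each mouse. Named were all members, *Jag1*, *Cdk4*, *Cdk6*, *Rb1*, the 2 genes of smallest p in each pathway list and the 2 genes most like each member, of which 1 is not reported here. The members and lists were chosen with earlier results of these data known, and the neuron and Schwann cell lists are not independent of them. The setting without mutants 1, 2 and 4 was chosen after seeing the data.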

Additional observations from a re-analysis of the deposited data

How the results depend on the processing

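No member had an adjusted p under 0.05 under any of the 24 alternative settings, and 193 of 216 fold changes kept their direction. The number of genes called over the whole table, 35 with edgeR, was 619 with DESeq2, 19 with limma-voom, 57 with no filter, 253 at an adjusted p under 0.1, 23 with the level of *Xist* as a covariate and 1 with neuron and Schwann cell scores entered as covariates. Leaving out 1 mouse gave 14 to 356 genes, the most without mutant 5, and moved the number by over 1.5 times for every mouse but control 1 and mutant 3. With the replicate number as a block 131 genes were called. The numbers are not said to pair the mice, same-numbered mice had correlations of deviations of −0.187 to 0.272, and 2 of 6 numbers correlated best with their own. With the cell scores as covariates the log2 fold change reversed to −0.0275 for *Cdkn1a*, −0.0591 for *Cdkn1b*, 0.106 for *Cdkn1c* and 0.0461 for *Cdkn2c*. It reversed to 0.0101 for *Cdkn2c* with the replication and mitosis score. Without mutants 1, 2 and 4, a setting added after seeing the data, it reversed to −0.0693 for *Cdkn1a*, 0.127 for *Cdkn1c*, 0.0326 for *Cdkn2c* and −0.0245 for *Cdkn2d*. Leaving out 1 mouse gave log2 fold changes of −0.0318 to 0.0979 for *Cdkn1b*, −0.0959 to 0.0545 for *Cdkn1c*, −0.0622 to 0.0308 for *Cdkn2c* and −0.0073 to 0.0935 for *Cdkn2d*. It gave −0.34 to −0.22 for *Ccnd1*, −0.34 to −0.23 for *Ccnd2*, −0.19 to −0.12 for *Ccnd3*, 0.0258 to 0.105 for *Cdkn1a*, the lowest without mutant 1, and −0.253 to −0.148 for *Cdkn2b*. Where a value reversed or a count moved, the cause was not tested. Over the settings that kept all mice, together with the one without mutants 1, 2 and 4, the lowest adjusted p was 0.184 for *Ccnd2* and 0.356 for *Ccnd1*, and with 1 mouse left out it was 0.194 for *Ccnd2* and 0.180 for *Ccnd1*, both without mutant 3. The spread between libraries of a genotype exceeded counting error, but the share of counting error in single members was not tested. Counts limit *Cdkn2a* most. The next lowest were *Cdkn2c*, at 120 to 189 reads per library, and *Cdkn2b*, at 132 to 199. The labels do not say that all libraries were made together.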
